A study of Mus musculus with 8 samples.

Results

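The 9 genes described here encode chemokines and chemokine receptors of the endothelial cells (ECs) of the adult mouse heart. They were taken by name from the deposited table of unique molecular identifiers (UMIs, counts of single captured mRNA molecules), which held 16791 genes. They comprised the homeostatic ligand Cxcl12, its receptors Ackr3 and Cxcr4, the membrane-anchored ligand Cx3cl1, the interferon-inducible ligands Cxcl10 and Cxcl9, and the inflammatory ligands Ccl5, Cxcl1 and Ccl2. All 9 passed the filter on low counts in the comparison of healthy and infarcted hearts over all EC-gated cells.

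Chemokines are small secreted proteins that direct migrating cells through G protein-coupled receptors. ECs both produce them and hold them on surface heparan sulfate, where rolling leukocytes meet them. CXCL12 acts through CXCR4 in vessel growth and stem cell homing, and ACKR3 is an atypical receptor that binds and internalises CXCL12, so that the local amount of ligand depends on both receptors.

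The study sorted CD31+ Confetti+ podoplanin- cells from the ventricles of Pdgfb-iCreERT2-R26R-Brainbow2.1 adult mice and profiled them by droplet-based single-cell RNA sequencing of transcript 3′ ends. The healthy group held 4 mice, and the MI group held 4 mice taken 7 days after myocardial infarction in which the left anterior descending coronary artery had been tied off permanently. Mice were given tamoxifen at 150 mg/kg, which in the MI group preceded ligation by 14 days and harvest by 21 days, so that cells with Pdgfb-driven Cre activity carried a heritable fluorescent label. Cells without that label, without surface CD31 or with podoplanin were lost at the sort, and the model reports only on the sorted ECs. Per the study's methods the healthy controls had no operation, so effects of the surgery itself and of the infarct cannot be told apart.

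The deposited table held 31028 cells, with 6764977 to 8793655 UMIs per healthy mouse and 15865234 to 27244947 per MI mouse. Cells with UMIs from at least 3 markers of haematopoietic, platelet, mural, fibroblast or lymphatic cells, or rich in haemoglobin transcripts, were set apart, which removed 2.70% to 7.22% of cells per healthy mouse and 14.97% to 45.1% per MI mouse. The remaining 24788 EC-gated cells (12753 healthy, 12035 MI) had Pecam1 UMIs in 73.7% and 92.9% of cells and Ptprc, the pan-leukocyte marker, at 0.213 and 0.786 CPM (UMIs per 1000000 UMIs of the same cells), with a median of 1890 and 3611 UMIs per cell. The summed level of the 19 haematopoietic markers left in these cells was 22.1 to 165 CPM in healthy and 243 to 361 CPM in MI mice, with none of the 19 at 0, so both depth and this residue moved with the group. Healthy mice 228 and 239 shared 2030 cells with the same barcode and near-identical counts, and mice 227 and 228 shared 301. In all, 2333 cells were such copies, with each pair counted in 1 mouse only. So counted, copies were 55.3% of the cells of mouse 228, and the 301 it shared with mouse 227 were counted in mouse 227. The healthy libraries were therefore not fully independent.

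The EC-gated cells were further divided by marker UMIs, assigned in this order: interferon cells (at least 2 Ifit3 UMIs, 696 healthy and 1869 MI cells), Plvap-high cells (at least 5 Plvap UMIs, 13 and 763), arterial cells (at least 2 Gja4 UMIs, 494 and 770), capillary cells (at least 2 Car4 UMIs, 1692 and 1150) and unclassed cells (9858 and 7483). A macrophage-marked class held 1415 cells of the haematopoietic gate with at least 2 C1qa UMIs. Pecam1 UMIs were found in 65.2% of the macrophage-marked cells, which limits that class as a pure non-endothelial reference.

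Promoter sequences are shown for Cxcl10 and Cxcl9, the neighbouring CXCR3 ligands that were higher in interferon cells, and for the known NF-kappaB target Cxcl1. The lines give 250 bases upstream of the RefSeq transcript start (GRCm38.p6), 5′ to 3′ on the gene's strand, with capitals marking matches to the interferon-stimulated response element (ISRE, GAAA followed after any 2 bases by another GAAA) or to the NF-kappaB consensus on either strand. The regions are chr5:92348890-92349139 (minus strand) for Cxcl10, chr5:92328080-92328329 (minus strand) for Cxcl9 and chr5:90890995-90891244 (plus strand) for Cxcl1.
Cxcl10: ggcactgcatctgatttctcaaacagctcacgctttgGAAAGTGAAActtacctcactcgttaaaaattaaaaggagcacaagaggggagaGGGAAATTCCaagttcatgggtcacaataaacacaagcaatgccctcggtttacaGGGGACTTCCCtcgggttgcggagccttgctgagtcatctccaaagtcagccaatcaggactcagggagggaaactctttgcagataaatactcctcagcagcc
Cxcl9: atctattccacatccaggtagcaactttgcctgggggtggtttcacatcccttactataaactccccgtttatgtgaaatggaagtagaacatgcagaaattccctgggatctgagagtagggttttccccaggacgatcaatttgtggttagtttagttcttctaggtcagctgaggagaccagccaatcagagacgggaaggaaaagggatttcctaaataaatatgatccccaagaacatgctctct
Cxcl1: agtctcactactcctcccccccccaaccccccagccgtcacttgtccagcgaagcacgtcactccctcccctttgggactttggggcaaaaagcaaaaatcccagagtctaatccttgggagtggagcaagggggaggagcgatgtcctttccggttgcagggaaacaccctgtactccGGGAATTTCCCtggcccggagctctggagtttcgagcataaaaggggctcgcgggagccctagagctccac
The Cxcl10 window held an ISRE match at -213 to -204 from the transcript start and NF-kappaB matches at -159 to -150 and in the overlapping stretch -104 to -94. The Cxcl1 window held an NF-kappaB match on both strands at -71 to -61, and the Cxcl9 window held no match to either motif. Of 32851 promoter windows of the same length, 2.98% held an ISRE match and 7.25% an NF-kappaB match. RefSeq windows were matched for 7 of the 9 members, the others being Ccl2 and Ccl5. Ackr3, Cxcr4, Cx3cl1 and Cxcl12 held neither motif, and a gamma-activated site (TTCNNNGAA, in 7.02% of windows) was found in none of the 7. A match describes letters in the window and not a bound site.

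Over all EC-gated cells, Cxcl12 was 2.11-fold lower in MI hearts, whereas its scavenging receptor Ackr3 was 3.70-fold higher, Cxcl10 was 5.33-fold higher and Ccl5 was 34.6-fold higher in summed UMIs. Of the 9 members, 3 were called higher and 1 lower by the quasi-likelihood test of edgeR (p-values adjusted by Benjamini-Hochberg over 11944 genes). Of the 3 higher, Ccl5 passed the filter on low counts through the MI mice, so the count is a description. In the same fit 16.5% of all tested genes were called higher and 15.7% lower (32.2% in all). Cxcr4, Cx3cl1, Cxcl1, Ccl2 and Cxcl9 did not pass the test. The summed UMIs of a mouse reflect both how many cells transcribe a gene and how much each cell holds, which the class and per-cell values below separate in part.

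**Figure D1:**
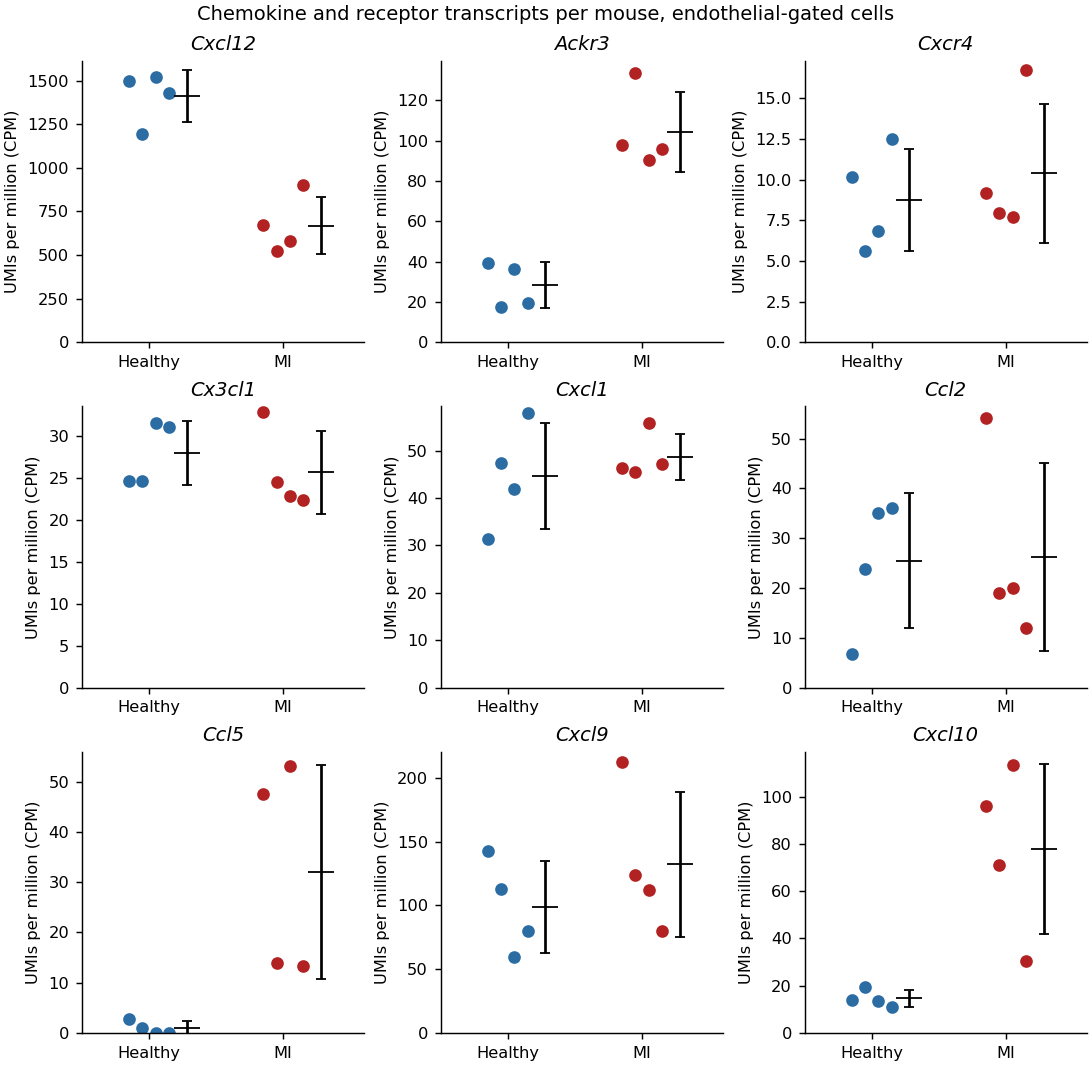
CPM (UMIs per 1000000, linear axis from 0, a scale of its own in each panel) of the 9 members in EC-gated cells of the 4 healthy (blue) and 4 MI (red) mice, with 1 point per mouse and the mean ± SD beside the points. Healthy and MI points did not overlap for Cxcl12, Ackr3, Cxcl10 and Ccl5.

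Cxcl12 (chr6:117168535-117181367, plus strand, GRCm38) was measured at 1500, 1195, 1520 and 1430 CPM in the healthy mice and at 672.8, 523.4, 580.5 and 899.8 CPM in the MI mice. Every MI mouse lay below every healthy mouse. The means were 1411 ± 149 and 669 ± 166 CPM (SD, n = 4 mice each), a log2 fold change of -1.16 (SE 0.16, edgeR adjusted p = 0.000983). It was -1.17 without the copied cells and -1.07 when every cell was thinned to 1000 UMIs. In thinned cells 60.7% ± 4.29 of healthy and 36.6% ± 7.53 of MI cells had a Cxcl12 UMI, and the groups did not overlap (two-sided exact permutation test over 70 splits, p = 0.0286, the smallest these splits can give; adjusted over the 9 members, 0.0643). In the macrophage-marked cells, a type not known as a main source of Cxcl12, the share was 12.7% in thinned cells, at a median depth of 7709 UMIs before thinning against 2644 in EC-gated cells.

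Ackr3 (chr1:90203980-90216751, plus strand) was at 39.51, 17.41, 36.49 and 19.45 CPM in the healthy and at 97.58, 133.6, 90.45 and 95.66 CPM in the MI mice. The groups were far apart, with the lowest MI mouse above the highest healthy mouse. The log2 fold change was 1.81 (SE 0.25, edgeR adjusted p = 0.000853), or 1.71 without the copied cells and 1.89 after thinning. The share of thinned cells with an Ackr3 UMI was 2.54% ± 0.813 in healthy and 9.20% ± 2.31 in MI mice (exact permutation p = 0.0286, adjusted 0.0643). Without thinning these shares were 5.68% and 28.1%, and 0.73% of healthy and 3.21% of MI macrophage-marked cells held a UMI after thinning.

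Cxcr4 (chr1:128588199-128592293, minus strand), the signalling receptor, was at 5.613 to 12.48 CPM in healthy and 7.682 to 16.73 CPM in MI mice. These ranges overlapped, and the log2 fold change was 0.16 (SE 0.31, 95% interval -0.45 to 0.78, edgeR adjusted p = 0.719). Cxcr4 had 247 UMIs in healthy and 520 in MI cells altogether, a pooled ratio of 1.17 (95% interval 1.0 to 1.36, counting error only). The fitted interval, which takes in the spread between mice, was wider.

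Cx3cl1 (chr8:94772009-94782427, plus strand), whose membrane-bound form tethers CX3CR1-bearing monocytes, was at 24.59, 24.61, 31.55 and 30.99 CPM in healthy and 32.85, 24.43, 22.76 and 22.34 CPM in MI mice. The highest value of all belonged to an MI mouse and the ranges overlapped. The log2 fold change was -0.21 (SE 0.14, 95% interval -0.49 to 0.07, edgeR adjusted p = 0.278).

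Cxcl10 (chr5:92346638-92348889, minus strand), a ligand of CXCR3 on T cells and natural killer cells, was at 14.12, 19.57, 13.63 and 11 CPM in healthy and 96.01, 70.9, 113.5 and 30.45 CPM in MI mice. Every MI mouse exceeded every healthy mouse, although the MI mice themselves spread widely. The log2 fold change was 2.32 (SE 0.35, edgeR adjusted p = 0.0014), 2.38 without copied cells and 2.22 after thinning. The share of thinned cells with a UMI went from 0.733% to 3.22% (exact permutation p = 0.0286, adjusted 0.0643). It was 5.45% in the macrophage-marked cells, which express Cxcl10 themselves.

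Cxcl9 (chr5:92321347-92328079, minus strand) encodes another CXCR3 ligand and lies 18558 bases from Cxcl10 on the same strand. It was at 142.3, 113.0, 59.75 and 80.23 CPM in healthy and 212.7, 124.1, 112.3 and 80.22 CPM in MI mice. The ranges overlapped, and the log2 fold change was 0.33 (SE 0.31, 95% interval -0.27 to 0.94, edgeR adjusted p = 0.432). The neighbouring gene Cxcl10 passed the test and Cxcl9 did not, a difference between the genes that was not itself tested. Among thinned cells 7.60% of healthy and 8.82% of MI cells held a Cxcl9 UMI.

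Ccl5 (chr11:83525778-83530518, minus strand), an attractant of T cells and monocytes, had 18, 7, 0 and 0 UMIs in the healthy mice and 638, 217, 553 and 154 UMIs in the MI mice. In CPM the healthy mice lay between 0 and 2.856, with an upper limit of 0.401 and 0.4025 CPM set by 3 counts in the mice with none, and the MI mice were at 47.52, 14.02, 53.1 and 13.28. The summed level was 34.6-fold higher in MI (95% interval 23.3 to 53.6, counting error only), and the fitted log2 fold change was 5.04 (SE 0.80, edgeR adjusted p = 0.00172). A single cell held 338 of the 638 UMIs of MI mouse 244, and the counting interval does not cover such clumping. Healthy mouse 227 held 18 of the 25 healthy UMIs, and without it the log2 fold change was 6.48 and still called. Both other gates kept the call (5.13 with the gate at 2 genes, 5.12 with a minimum share). Only without any gate, over all deposited cells, was it lost (1.96, edgeR adjusted p = 0.23), and 304 Ccl5 UMIs lay in 259 healthy haematopoietic-marked cells.

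Cxcl1 (chr5:90891241-90893115, plus strand), a neutrophil attractant, was at 31.26 to 57.96 CPM in healthy and 45.43 to 55.79 CPM in MI mice. Ccl2 (chr11:82035571-82037453, plus strand), the main monocyte attractant, was at 6.822, 23.89, 35.02 and 35.96 CPM in healthy and 54.08, 19.0, 20.07 and 11.9 CPM in MI mice. Neither group stood apart from the other. The log2 fold changes were 0.03 (SE 0.16, 95% interval -0.28 to 0.34, edgeR adjusted p = 0.895) for Cxcl1 and -0.05 (SE 0.51, -1.04 to 0.95, adjusted p = 0.949) for Ccl2. The wide interval for Ccl2 covers a rise as well as a fall. Its sign turned positive without the copied cells (0.14) and with 2 other gates (0.00017 and 0.27).

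Neither the CPM of Ccl2 nor its share of thinned cells passed the threshold after adjustment, while the unthinned share, in deeper MI cells, did (0.981% and 3.66%, exact permutation p = 0.0286, adjusted 0.0367). The share of thinned cells with a Ccl2 UMI was 0.344% to 0.760% in healthy and 0.985% to 1.47% in MI mice without overlap (exact permutation p = 0.0286, adjusted 0.0643). In the macrophage-marked cells, which transcribe Ccl2 abundantly, 30.7% of 137 healthy and 17.5% of 1277 MI thinned cells held a UMI. The CPM of EC-gated cells turned on very few cells: 7 of 12753 healthy and 15 of 12035 MI cells held 50% of all Ccl2 UMIs, with a highest cell of 93 and 253 UMIs. How much of the share was free RNA from macrophages was not tested.

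The members differed widely in how their UMIs were spread over cells. Of all Cxcl12 UMIs, 50% lay in 1722 healthy and 1204 MI cells, and for Ackr3 these numbers were 315 and 947. Cxcl10 needed 17 healthy and 63 MI cells, and Ccl5 in MI needed 5. In MI hearts 13 EC-gated cells with at least 20 Ccl5 UMIs held 74.1% of all Ccl5 UMIs, and they came from all 4 mice. Of these cells, 12 had UMIs of at least 2 of the 6 endothelial genes Pecam1, Kdr, Cdh5, Tie1, Tek and Egfl7, none had a Ptprc UMI, and 10 were interferon cells by Ifit3. The cells with 195 and 121 Ccl5 UMIs each also held 1 UMI of the macrophage gene C1qa and 1 of the myeloid gene Lyz2. In the same way 47 MI cells with at least 20 Cxcl10 UMIs held 43.4% of that ligand, with 46 carrying at least 2 endothelial genes, 41 at least 2 Ifit3 UMIs and none Ptprc. Among the 8 cells highest for Cxcl10, 1 held 2 C1qa UMIs and 3 held 1 to 4 Lyz2 UMIs. The threshold of 20 UMIs was chosen after these distributions had been seen.

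**Figure D2:**
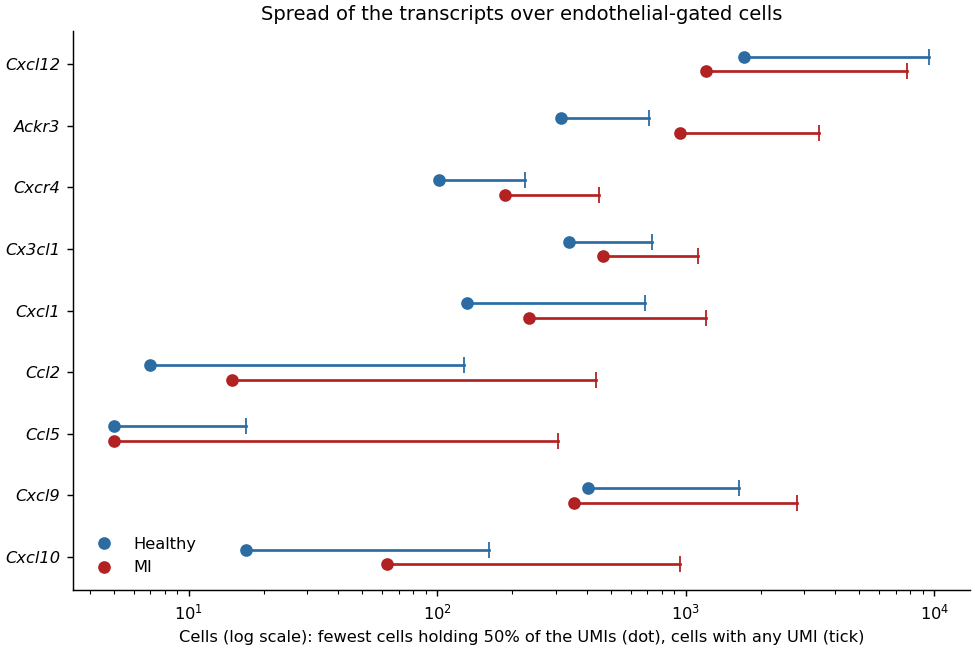
Fewest cells (log axis) that together hold 50% of a member's UMIs (dot) and all cells with any UMI of it (tick), in healthy (blue) and MI (red) EC-gated cells. The dots ran from 5 cells for Ccl5 to 1722 healthy cells for Cxcl12.

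Cxcl12 separated the arterial cells from every other class after infarction. In healthy hearts its level was 1634 ± 321 CPM in arterial, 1421 ± 147 in unclassed, 1378 ± 211 in capillary and 1281 ± 165 in interferon cells (SD, n = 4 mice), and each of these ranges overlapped the next. In MI hearts arterial cells were at 1629, 1220, 1721 and 1516 CPM, whereas capillary cells were at 584.2, 522.0, 495.8 and 963.5 CPM. Unclassed (633 ± 172), interferon (605 ± 149) and Plvap-high cells (432 ± 161) followed, again with overlapping ranges, and the arterial range alone stood clear of the others.

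Within arterial cells the log2 fold change of Cxcl12 between MI and healthy mice was -0.15 (SE 0.15, 95% interval -0.44 to 0.13, edgeR adjusted p = 0.578), against -1.15 in capillary, -1.16 in interferon and -1.24 in unclassed cells (adjusted p = 0.00236, 0.000293 and 0.000713). The difference between the MI effect in arterial cells and in the other EC-gated cells was 1.15 on the log2 scale (SE 0.11, 95% interval 0.93 to 1.38, adjusted p = 1.99e-09). In this test 1 of the 9 members was called, in the higher direction, where 1.48% of all genes were (0.825% higher, 0.654% lower). In capillary cells the difference was called for 0 of the 9 by edgeR and by DESeq2 (2 of the 9 had an unadjusted p under 0.05 by each tool), where 0.3% of all genes were called (0.225% higher, 0.075% lower). Leaving out any 1 mouse gave 1.01 to 1.36. The value within the class moved with the threshold, since at 1 or more Gja4 UMIs the fall of Cxcl12 was called (-0.50, edgeR adjusted p = 0.0101), and the difference between classes was not fitted again at that threshold.

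Graded by Gja4, a gap-junction gene of arterial endothelium, MI cells without a Gja4 UMI held 524.5 CPM of Cxcl12 (406.5 to 778.7 over mice), those with 1 UMI 1055 CPM, those with 2 or 3 UMIs 1494 CPM and those with 4 or more 1497 CPM (1283 to 1916). Healthy cells were at 1362, 2020, 1707 and 1335 CPM in the same bins, the last over 3 mice. The healthy and MI ranges were apart at 0 and at 1 Gja4 UMI and overlapped above. These bins are a description, since marker UMIs also depend on the depth of each cell.

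**Figure D3:**
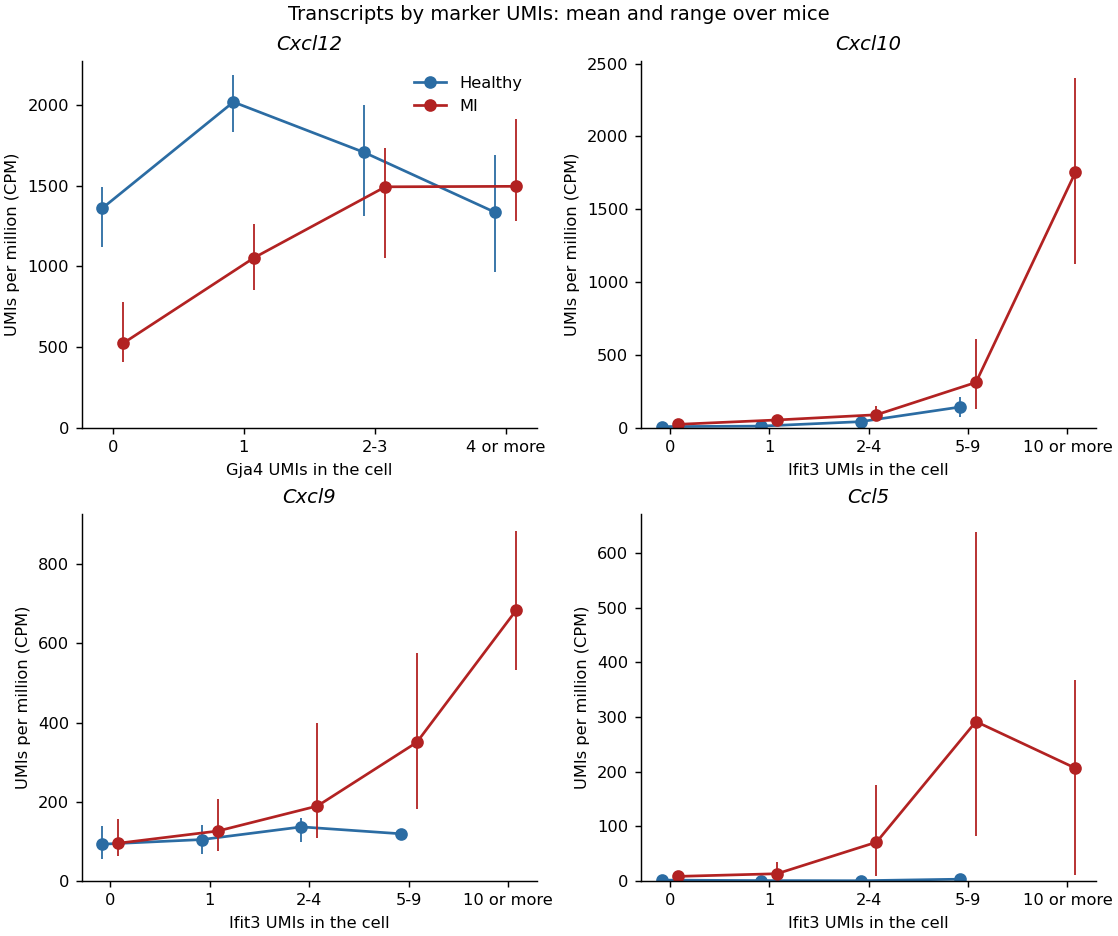
Mean CPM (linear axis) of Cxcl12 in EC-gated cells binned by Gja4 UMIs and of Cxcl10, Cxcl9 and Ccl5 in cells binned by Ifit3 UMIs, in healthy (blue) and MI (red) hearts, with the range over mice as bars. In MI hearts Cxcl12 went from 524.5 CPM without Gja4 to 1497 CPM at 4 or more Gja4 UMIs, and Cxcl10 from 22.6 CPM without Ifit3 to 1754 CPM at 10 or more Ifit3 UMIs. That last Ifit3 bin covers 3 MI mice.

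Ackr3 did not separate the EC classes. MI means were 109 ± 19.4 CPM in interferon, 107 ± 24.5 in Plvap-high, 105 ± 21.1 in unclassed, 101 ± 24.4 in arterial and 89.3 ± 28.5 in capillary cells, and all 5 ranges overlapped. Healthy means were 19.4 to 32.7 CPM in the 4 classes with enough cells. It was called higher in MI in arterial (2.17, SE 0.27), unclassed (1.86), capillary (1.64) and interferon cells (1.61), with edgeR adjusted p of 0.000152, 0.000949, 0.00129 and 0.000278. In arterial cells Ackr3 had 29 healthy UMIs and passed the filter on low counts through the MI mice, so that value is a description. The MI effect in a class differed from that in the other cells by 0.32 in arterial, -0.13 in interferon and -0.25 in capillary cells (adjusted p = 0.751, 0.934 and 0.793). Against the other EC-gated cells of the same mice, no class differed by more than 0.13 on the log2 scale, with intervals between -0.28 and 0.24.

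**Figure D4:**
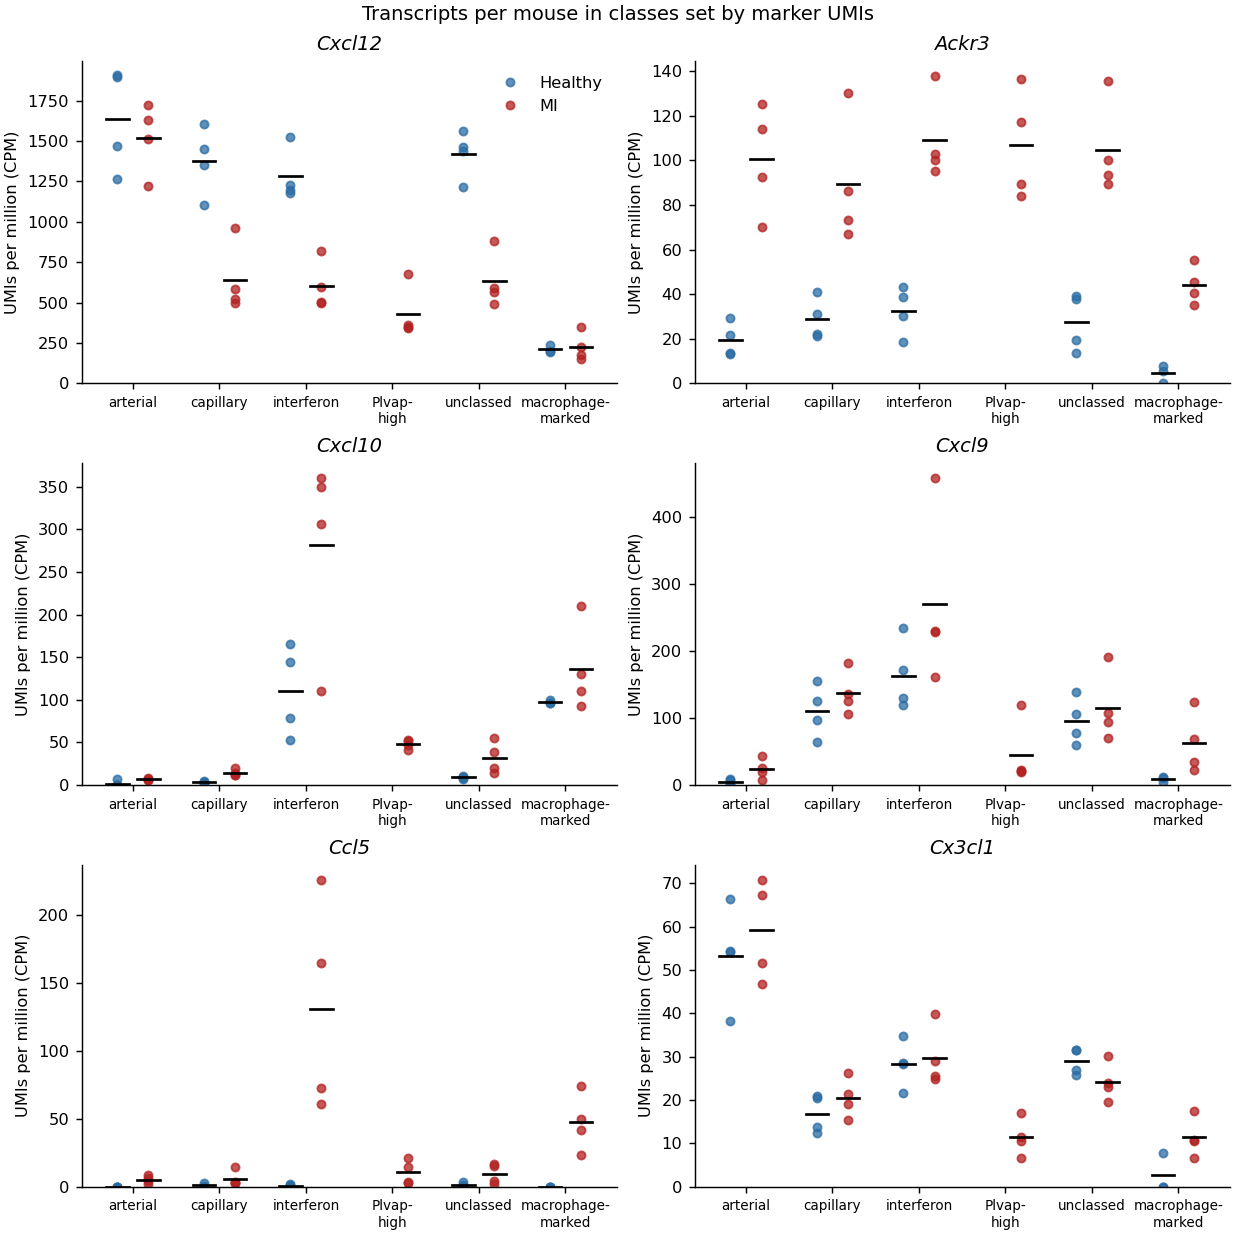
CPM (linear axis) of Cxcl12, Ackr3, Cxcl10, Cxcl9, Ccl5 and Cx3cl1 by cell class, with 1 point per healthy (blue) or MI (red) mouse with at least 20 cells of the class and a line at each mean. Arterial cells lead for Cxcl12 in MI hearts and for Cx3cl1 in both groups, interferon cells for Cxcl10, Cxcl9 and, in MI hearts, Ccl5.

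Arterial cells also held the highest levels of Cx3cl1 and Cxcr4. Cx3cl1 was at 53.3 ± 11.5 CPM in healthy and 59.2 ± 11.7 CPM in MI arterial cells, above the highest mouse of every other class. It was next in unclassed and interferon cells (29.0 ± 3.11 and 28.2 ± 5.39 healthy, 24.2 ± 4.47 and 29.8 ± 6.95 MI), which overlapped, and lower in capillary (16.9 ± 4.44 and 20.5 ± 4.56) and Plvap-high cells (11.5 ± 4.23 in MI). Cxcr4 was at 17.2 ± 11.2 and 26.8 ± 5.32 CPM in arterial cells, at 8.33 to 10.4 CPM on average in the capillary, interferon and unclassed classes, and at 5.03 ± 0.502 CPM in Plvap-high cells. Healthy arterial Cxcr4 rested on 20 UMIs and overlapped the other classes, whereas the MI arterial range (20.03 to 32.69 CPM) lay above them.

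Compared with the other EC-gated cells of the same mice, 3 members were higher and 5 lower in arterial cells, where 25.9% of 10550 tested genes were called (12.3% higher, 13.6% lower). Cxcr4 (log2 difference 1.37, SE 0.21, edgeR adjusted p = 4.25e-06), Cx3cl1 (1.17, SE 0.12, 7.7e-10) and Cxcl12 (0.77, SE 0.12, 9.19e-06) were higher. Cxcl10 (-3.60), Ccl2 (-3.01), Cxcl9 (-2.87), Ccl5 (-2.66) and Cxcl1 (-1.28) were lower. No Ccl2 UMI was seen in 494 healthy arterial cells (0 of 466 thinned cells, which allows a share of up to 0.644% for cells with a UMI at this depth, not for cells that transcribe the gene, counting error only). The order of assignment kept cells with 2 or more Ifit3 UMIs out of the arterial, capillary and Plvap-high classes, which bears on the ligands that go with Ifit3. When cells could belong to more than 1 class, arterial Cxcl10 was at -0.63 (edgeR adjusted p = 0.0058), Cxcl9 at -1.82, Ccl2 at -2.70 and Ccl5 at 0.24 (adjusted p = 0.765), while Cxcr4 (1.25), Cx3cl1 (1.19) and Cxcl12 (0.78) moved little. The Ccl5 value was not called by DESeq2 either.

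Levels of Cxcl10 and Cxcl9 had their highest means among the EC classes in interferon cells, although unclassed cells, which are far more numerous, held more of the Cxcl9 UMIs (1878 healthy and 3452 MI, against 361 and 2471 in interferon cells). Cxcl10 was at 52.65, 165.5, 144.9 and 78.72 CPM in healthy and 360.0, 306.4, 349.2 and 110.7 CPM in MI interferon cells, against 8.86 ± 1.35 and 31.8 ± 18.8 CPM in unclassed cells. In MI hearts Plvap-high cells came second with 48.4 ± 5.51 CPM, followed by unclassed, capillary (14.4 ± 3.47) and arterial cells (6.86 ± 1.24), and the unclassed range overlapped both of its neighbours. Cxcl9 was at 164 ± 52.2 and 270 ± 130 CPM in interferon, 111 ± 38.9 and 137 ± 31.9 in capillary, 95.7 ± 34.7 and 115 ± 52.4 in unclassed and 4.61 ± 4.35 and 24.0 ± 15 CPM in arterial cells. The first 3 of these ranges overlapped and the arterial range lay below them, overlapped in turn by the Plvap-high cells of MI hearts (45.5 ± 49.5 CPM).

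Against the other EC-gated cells, 3 members were higher and 1 lower in interferon cells, where 4.57% of 10843 tested genes were called (3.7% higher, 0.867% lower). The 3 higher were Ccl5 (log2 difference 3.80, SE 0.15, edgeR adjusted p = 7.18e-23), Cxcl10 (3.39, SE 0.10, 1.01e-27) and Cxcl9 (1.25, SE 0.07, 3.66e-17). Ccl5 had 2 UMIs in healthy interferon cells and 25 in all healthy EC-gated cells. In MI hearts the 13 EC-gated cells with at least 20 Ccl5 UMIs held 74.1% of them, and 10 were interferon cells. The Ccl5 difference therefore rests mainly on few cells. Ccl5 was tested through its MI counts here and in the arterial and capillary comparisons, so these counts of members are descriptions. The difference of Cxcl12 was small (-0.13, SE 0.03, adjusted p = 0.0127) and lost its call under 9 of 18 alternatives. These were DESeq2 (-0.13), the gate at 2 genes (-0.12), lower class thresholds (-0.08), thinned cells (-0.06), classes from thinned cells (0.08) and leaving out healthy mouse 239 or 240 or MI mouse 244 or 255 (-0.13 to -0.11), with adjusted p of 0.0517 to 0.714. Ackr3 (0.13), Cx3cl1 (0.22) and Ccl2 (0.44) were not called.

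Within interferon cells, 3 members were called higher and 1 lower in MI, where 13.1% of 8962 genes were (5.95% higher, 7.2% lower). Of the 3 higher, Ccl5 was tested through its MI counts alone, so the count is not set against that share. Ackr3 and Cxcl12 are given above. Ccl5 had 1, 1, 0 and 0 UMIs in healthy and 471, 167, 426 and 133 UMIs in MI interferon cells, a pooled ratio of 139 (95% interval 38.5 to 1150, counting error only). Single cells held 338 of the 471 UMIs of MI mouse 244 and 121 of the 133 of MI mouse 256. The interval treats UMIs of a cell as independent and does not cover this. Cxcl10 had a log2 fold change of 1.32 (SE 0.36, edgeR adjusted p = 0.0239), which was not called after thinning (0.89, adjusted p = 0.218), by DESeq2 (1.26, adjusted p = 0.0946) or without any 1 of healthy mice 227 and 240 and MI mice 244, 250 and 255 (1.02 to 1.28, adjusted p 0.0526 to 0.094). Cxcl9 was not called (0.62, SE 0.28, edgeR adjusted p = 0.156), but was without the filter on low counts (0.66, adjusted p = 0.0237) and with classes from thinned cells (0.79, adjusted p = 0.0366).

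Outside the interferon class Cxcl10 was also called higher in MI, in capillary (2.06, edgeR adjusted p = 0.0023) and unclassed cells (1.76, edgeR adjusted p = 0.0069). Healthy capillary cells held 14 Cxcl10 UMIs (3.26 CPM), so Cxcl10 passed the filter on low counts there through the MI mice. The members called were 2 higher, Cxcl10 being 1 of them, and 1 lower of 6 tested in capillary cells, a description for that reason. Of all genes tested there 11.6% were called (5.46% higher, 6.15% lower). In unclassed cells 3 members were called higher and 1 lower of 9 (27.7% of genes, 14.5% higher and 13.3% lower). Of the 3 higher, Ccl5 held 19 healthy UMIs and passed the filter through the MI mice, so that count is a description too. In arterial cells 1 member of 5, Ackr3, was called higher (8.67% of genes, 4.11% higher and 4.56% lower). Ackr3 held 29 healthy UMIs there and needed the MI mice to pass the filter, so this count is likewise a description. Ccl5 in unclassed cells (3.16, SE 0.91, adjusted p = 0.0243) lost its call with DESeq2 (0.105) and without healthy mouse 228, 239 or 240 or MI mouse 244 or 255 (0.0539 to 0.0688).

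**Figure D5:**
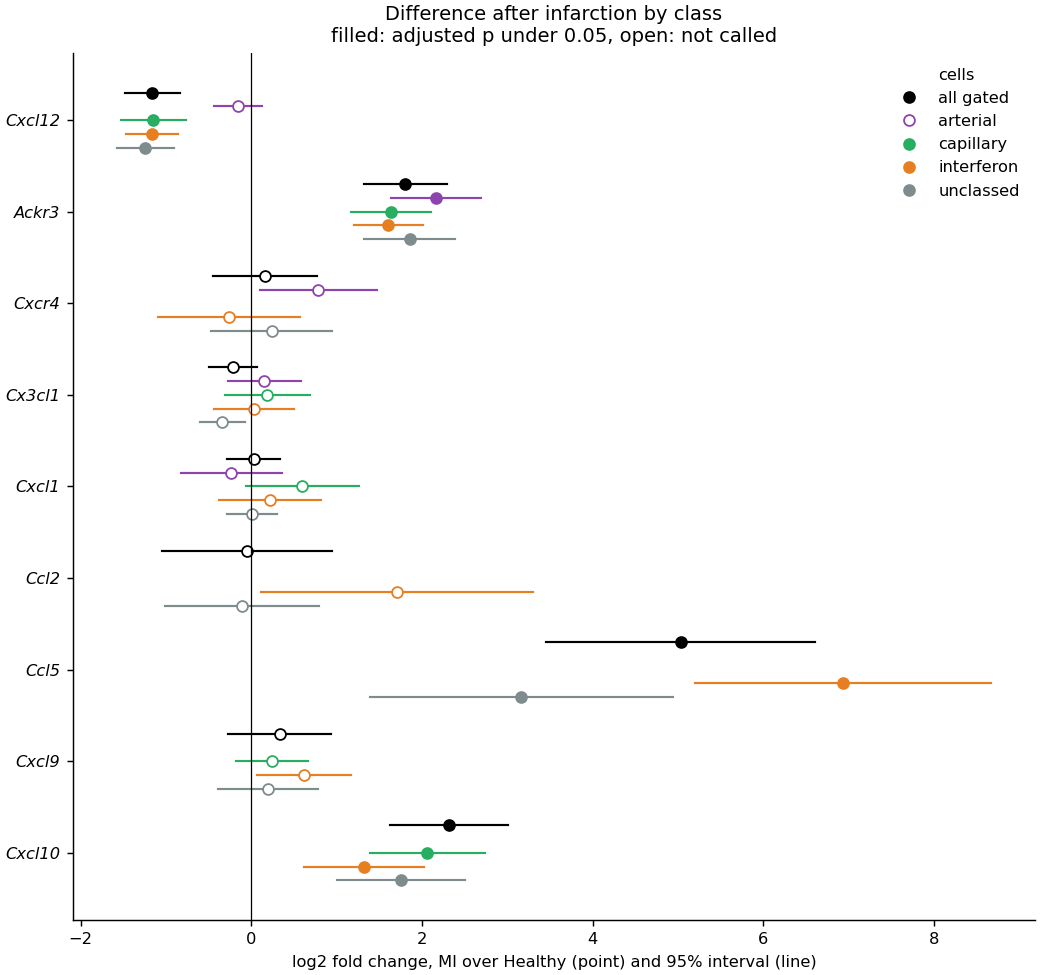
Log2 fold change of each member between MI and healthy mice in all EC-gated cells and within 4 classes, with 95% intervals as lines, filled points for edgeR adjusted p under 0.05 and no point where a member was not tested. Cxcl12 is at -0.15 in arterial cells and between -1.24 and -1.15 in capillary, interferon and unclassed cells, and Ackr3 is above 0 in each class.

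The MI effect in interferon cells differed from that in the other EC-gated cells for 3 members, each in the higher direction, where 0.175% of genes were called (0.111% higher, 0.0646% lower). They were Ccl5 (4.46, SE 0.92, edgeR adjusted p = 0.0178), Ccl2 (1.76, SE 0.36, 0.0178) and Cxcl9 (0.66, SE 0.13, 0.017). Ccl5 was tested through its MI counts, and the size of its difference rests on 2 UMIs in healthy interferon cells. Its MI counts in that class lay mainly in few cells, as given above. DESeq2 did not call Cxcl9 (0.59, adjusted p = 0.124) and left the adjusted p of Ccl2 and Ccl5 undefined. Each call was lost without healthy mouse 227, with values of 2.80, 1.64 and 0.39 (adjusted p = 0.689, 0.0558 and 0.353). No other single mouse ended the call of Cxcl9, nor that of Ccl5 where it could still be tested (not without MI mouse 244, 250 or 255), whereas Ccl2 also lost its call without healthy mouse 240 (1.15, 0.267), MI mouse 244 (1.61, 0.0679) or MI mouse 250 (1.68, 0.0809). With the haematopoietic gate at 2 genes Cxcl9 was at 0.63 (adjusted p = 0.159) and Ccl2 at 0.63 (0.926), and in thinned cells they were at 0.53 (0.59) and 1.54 (0.686). With the gate that also asked for a minimum share, Ccl2 was at 2.0 (0.0528) and Ccl5 at 3.92 (0.153). For Cxcl10 the difference was -0.55 (SE 0.25, adjusted p = 0.676).

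Cells with more Ifit3, an interferon-induced antiviral gene, held more Cxcl10. In MI hearts the mean was 22.6 CPM at 0 Ifit3 UMIs, 52.7 at 1 and 88.5 at 2 to 4. It was 310.7 CPM at 5 to 9 and 1754 CPM at 10 or more. The last bin held 156 MI cells, and its means for each ligand were taken over the 3 MI mice with enough cells. Healthy hearts had 7.08, 10.5, 41.1 and, in the 2 mice with enough cells, 141.7 CPM in the first 4 bins. Cxcl9 in MI hearts was at 94.9, 126, 189, 350 and 684 CPM, and Ccl5 at 7.93, 12.8, 70.6, 291.6 and 206 CPM. Single cells of MI mice 244 and 256 held 338 and 121 of the 566 Ccl5 UMIs at 5 to 9 Ifit3 UMIs. MI mice ranged from 81.5 to 640 CPM of Ccl5 in that bin. Healthy Ccl5 averaged at most 2.83 CPM in the first 4 bins (up to 5.65 CPM in a single mouse), and the 23 healthy cells with 10 or more Ifit3 UMIs held 1 Ccl5 UMI.

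Cells with a Cxcl10 UMI more often held Cxcl9 as well. In thinned cells Cxcl9 was found in 27.1% of MI cells with Cxcl10 (17.3% to 36.6% over mice) and in 8.17% of those without (6.51% to 10.2%), and in healthy hearts in 26.7% and 7.45%. Of 374 thinned MI cells with Cxcl10, 108 held Cxcl9 and 14 held Ccl5. Cxcl12 and Ackr3, the ligand and its scavenger, showed little such pairing: Ackr3 was found in 8.55% of MI cells with and 9.60% of those without Cxcl12. These shares are descriptions, with cells of a mouse sharing a library.

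Plvap encodes the diaphragm protein of fenestrated and activated endothelium, and Plvap-high cells came almost wholly from MI hearts. By the thresholds given above they made up 0.105% of healthy and 6.90% of MI EC-gated cells (exact permutation p = 0.0286, adjusted over 5 classes 0.0476), and interferon cells 5.70% and 15.9% (0.0286, adjusted 0.0476). Capillary cells were 13.4% and 8.94% (exact p = 0.114), and MI cells were deeper. After thinning to 1000 UMIs, lower thresholds were used (1 UMI of Ifit3, Gja4 or Car4 or 2 of Plvap), so the classes are not the same cells. Plvap-high cells then made up 0.141% of healthy and 5.29% of MI cells (exact permutation p = 0.0286, adjusted over 5 classes 0.0714). MI mouse 255 held 320 of the 763 MI Plvap-high cells, and without it the thinned MI share was 3.37%. By the same exact test, capillary cells went from 19.6% to 8.82% (p = 0.0286, adjusted 0.0714) and interferon cells from 9.32% to 14.2% (p = 0.0857, adjusted 0.143), so in thinned cells no class share passed the threshold after adjustment. Arterial cells were 5.75% and 6.38%.

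Against the other EC-gated cells of the 4 MI mice, 8 members were lower in Plvap-high cells and 0 higher by edgeR (0 with an unadjusted p under 0.05, and 0 by DESeq2), where 24.1% of 11343 genes were called (12.0% lower, 12.1% higher). Ccl2 (log2 difference -2.06), Cxcl9 (-1.70), Ccl5 (-1.65) and Cx3cl1 (-1.29) differed most (edgeR adjusted p = 1.1e-05, 3.54e-06, 7.13e-07 and 4.76e-05). Cxcl12 (-0.65), Cxcr4 (-0.95), Cxcl10 (-0.84) and Cxcl1 (-0.43) were not called by DESeq2, and with overlapping classes Cxcl10 was at 0.14 and Ccl2 at -0.94. Without MI mouse 255 Cxcl10 was at -0.41 (edgeR adjusted p = 0.203), with the gate at 2 genes at -0.37 (0.381) and in thinned cells at -0.51 (0.178). Cxcr4 also lost its call with both other gates, at lower class thresholds and without MI mouse 244, 255 or 256 (-1.54 to -0.53, adjusted p 0.052 to 0.119). Cxcl1 lost it with the gate at 2 genes (-0.25, adjusted p = 0.458) and without MI mouse 250, 255 or 256 (-0.48 to -0.30, adjusted p 0.0898 to 0.0944). Cx3cl1 was not called in thinned cells (-0.62, adjusted p = 0.431). These cells were deeper than the rest, with a median of 5716 UMIs in MI hearts.

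Capillary cells, marked by the carbonic anhydrase gene Car4, were lower in 5 members by edgeR (4 by DESeq2) and higher in 0 by either tool (1, Cxcl9, had an unadjusted p under 0.05), where 12.3% of 10664 genes were called (6.41% lower, 5.86% higher). Cxcl10 (-2.34, adjusted p = 2.83e-15), Ccl5 (-1.99), Ccl2 (-1.69), Cx3cl1 (-0.57) and Cxcl1 (-0.57) were lower by edgeR. Ccl5 was not called by DESeq2 and Cx3cl1 not after thinning, and with a threshold of 1 Car4 UMI Ccl2 was at 0.08 and Cxcl1 at -0.12 (adjusted p = 0.425). With overlapping classes Cxcl10 was at -0.90 (edgeR adjusted p = 0.00358). Cxcl9 (0.17), Cxcl12 (-0.02), Ackr3 (-0.11) and Cxcr4 (-0.26) were not called.

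All 9 members differed between macrophage-marked and EC-gated cells, where 42.9% of 11487 genes did (21.2% higher, 21.7% lower). Ccl2 (4.12, SE 0.29, edgeR adjusted p = 3.56e-07), Cxcl10 (1.52), Cxcr4 (1.34), Cxcl1 (0.98) and Ccl5 (0.91) were higher in the macrophage-marked cells, and Ccl5 lost its call with the gate at 2 genes (0.75, adjusted p = 0.11). Cxcl12 (-1.80, SE 0.20, 2.26e-05), Cxcl9 (-1.15), Ackr3 (-1.004) and Cx3cl1 (-0.98) were lower. Ccl2 was at 539 ± 200 CPM (n = 3 mice) and 316 ± 63.6 CPM (n = 4) in healthy and MI macrophage-marked cells, and Cxcl9 at 9.22 ± 3.46 and 62.3 ± 45.4 CPM.

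Other genes of the chemokine system were counted in the same comparison of EC-gated cells. Of 28 further ligands, 25 were in the table and 14 passed the filter on low counts, of which 9 were called higher and 1 lower in MI (16.5% and 15.7% of all tested genes). A ligand seen mainly in MI hearts could pass the filter through them alone, so this count describes the tested ligands and not the list. The summed level of the listed ligands was 106 to 138 CPM in healthy and 173 to 199 CPM in MI mice. Ccl4, another attractant of monocytes, was at 0.353 and 14.4 CPM (5.21, SE 0.47, edgeR adjusted p = 0.000242). It passed the filter through the MI mice, where it is high, so its value is a description. The neutrophil attractant Cxcl2 was at 5.40 and 18.1 CPM (1.65, edgeR adjusted p = 0.000979). Cxcl16, a membrane-anchored ligand like Cx3cl1, changed less (55.9 and 76.6 CPM, 0.37, adjusted p = 0.0122). Many of these ligands are also made by macrophages, and the residual haematopoietic markers in the same cells moved with the group as given above; their part in these values was not tested.

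Of 21 further receptors, 4 were tested, with 2 called higher and 1 lower (16.5% and 15.7% of all tested genes). This is a count over the tested genes only, as for the ligands. The filter was passed by Ackr1 through the MI mice, where it is high. Ackr1, the chemokine-binding receptor of venules, was at 0.317 CPM in healthy and 28.9 ± 36.4 CPM in MI mice (6.48, SE 1.29, edgeR adjusted p = 0.00466). Ccrl2, an atypical receptor that presents chemerin, fell from 49.8 to 35.8 CPM (-0.57, adjusted p = 0.00148). Of 14 genes for processing and presentation 10 were tested, and 5 were higher and 0 lower (16.5% and 15.7% of all tested genes). Among the 5 were the membrane protease Mmp14 (7.99 and 62.9 CPM, 2.90, edgeR adjusted p = 0.000242) and the heparan sulfate enzyme Ndst1 (0.72). Of 11 receptor signalling genes 9 were tested, and 4 were higher and 0 lower (16.5% and 15.7% of all tested genes). The 4 included the arrestin Arrb1 (13.4 and 31.5 CPM, 1.14, edgeR adjusted p = 0.00099).

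Of 14 interferon-response genes 4 were higher and none lower in MI, with a median of 0.39, where 16.5% of all genes were higher and 15.7% lower. Irf7, the interferon-induced regulator of interferon genes, was at 112 and 331 CPM (1.48, edgeR adjusted p = 0.000663). Of 11 tested NF-kappaB-response genes, 6 were higher and 1, Nfkbia (-0.37), was lower. The adhesion molecules Vcam1 (0.74), Icam1 (0.40), Sele (2.58) and Selp (3.73) were among those higher. Il6 (0.327 and 16.9 CPM) passed the filter through the MI mice. Sele and Selp, as low as 0.535 and 0.939 CPM in a healthy mouse, also needed the MI mice to pass it. The count is therefore a description. Of 12 dissociation and stress genes 2 were higher, Atf3 (0.72) and Socs3 (0.84), with a list median of -0.21, and their share was close to that of all genes called higher. The members themselves had a median of 0.16.

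Genes most like each member were found by Pearson correlation of log2(CPM + 20) over 36 sums of mouse and class, as a description, since the sums share mice and depth. Cxcl12 was most like Nck1 (0.916), Slc6a6 (0.889) and Myo10 (0.874), and Ackr3 like Emilin1 (0.900), Serinc3 (0.893) and Ufc1 (0.871). Cx3cl1 was most like 8430408G22Rik (0.922), Hey1 (0.907) and St8sia6 (0.905), and Cxcl10 like Ifi204 (0.891), Zbp1 (0.886) and Gm4951 (0.884). For Cxcl9 the first was Timeless (0.899). Cxcl1 and Ccl2 had weaker likeness, with Phlda1 (0.705) and Pole4 (0.703) first.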

How the data were processed

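Single cells were measured by the 10X Chromium 3′ method. Per the labels and the study's methods, the authors aligned reads to mm10 and counted UMIs with the Cell Ranger pipeline, left out cells with few genes or a high mitochondrial share, used Seurat 2.3 in R 3.5.2 downstream, and deposited 1 aggregated table of raw UMI counts, not normalised, whose column prefixes name the mouse. Columns mapped to no mouse numbered 0. Since UMIs are counted per gene over a 3′ tag, levels were not compared between genes.

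Cells were gated by marker lists (at least 3 genes with a UMI; haemoglobin genes over 5% of UMIs) and classed by marker UMIs. No doublet caller was run, so EC-leukocyte doublets left the EC gate only through these markers. Counts were summed per mouse, or per mouse and class with at least 20 cells, and fitted with edgeR 4.0.16 in R 4.3.3 (filterByExpr, TMM, quasi-likelihood F test, Benjamini-Hochberg adjustment over all tested genes, threshold 0.05). Groups were compared as 4 against 4 mice, classes within mice with the mouse as a block, and class differences of the MI effect by an interaction term. CPM is a mouse's UMIs per 1000000 of its EC-gated (or class) UMIs, and an SE is the log2 fold change over the square root of F. Shares of cells were taken from cells thinned to 1000 UMIs (1614 healthy and 0 MI cells were shallower and left out, and classes had lower thresholds) and compared by an exact permutation test in Python 3.11.15 with scipy 1.17.1, two-sided over 70 splits, whose smallest p is 0.0286. Pooled ratios and upper limits from 3 counts cover counting error only, with 95% intervals. They treat UMIs of the same cell as independent. In simulated counts with 200 genes changed 2-fold, 75.0% were recovered with 15 false calls among 11944 genes for MI against healthy, and 84.5% with 9 among 10843 genes for interferon cells against the rest.

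All 9 members are described. Of the related gene lists, genes called in MI against healthy could be named where the mean of the 8 mice reached 5 CPM, and for members reaching 20 CPM the 3 genes of highest correlation among genes of at least 20 CPM. The members, classes and lists were chosen with earlier results of these data known. Alternatives were RLE scaling, no count filter, DESeq2 1.42.0, Xist as a covariate, leaving out copied cells or 1 mouse, other gates, class thresholds and class definitions, and thinned cells. A haematopoietic gate with a minimum share of UMIs was added after seeing the data. Promoters were read from a RefSeq table of GRCm38.p6, and gene coordinates from GENCODE vM21.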

Additional observations from a re-analysis of the deposited data

Results flagged for a closer look

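Some members had a single mouse far from the other 3 of its group, in 9 of 99 groups of 4 mice tested, where chance gives about 1 in 20. In EC-gated cells of MI mice these were the highest mouse for Ackr3 (133.6 CPM, others 90.45 to 97.58), Cxcl1 (55.79 CPM, others 45.43 to 47.18) and Cxcr4 (16.73 CPM, others 7.682 to 9.162). Within classes of MI mice they were Ccl5 in capillary cells (14.58 CPM), Cxcl12 (674.0 CPM) and Cxcl9 (119.8 CPM) in Plvap-high cells and Cxcr4 in unclassed cells (17.84 CPM). In healthy mice they were Cxcl12 in interferon cells (1526 CPM, others 1177 to 1227) and Cxcl10 in arterial cells (6.632 CPM from a single UMI, others 0).

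The MI effect differed between a class and the other EC-gated cells, by an interaction term, for Cxcl12 in arterial cells (1.15 on the log2 scale, edgeR adjusted p = 1.99e-09) and in interferon cells for Cxcl9 (0.66, 0.017), Ccl2 (1.76, 0.0178) and Ccl5 (4.46, 0.0178). The Cxcl12 difference was called under each alternative that was run. Each of the 3 interferon differences lost its call without healthy mouse 227, and under other settings as well (Ccl2 at 0.63, edgeR adjusted p = 0.926, with the gate at 2 genes).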

How the results depend on the processing

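For the 9 members over all EC-gated cells, 138 of 153 values under an alternative kept their direction and side of the threshold, 14 reversed (all uncalled) and 1 lost its call, Ccl5 over all deposited cells (1.96). Within classes 245 of 261 values did so, between classes 427 of 467, against macrophage-marked cells 134 of 135, and for differences of the MI effect 40 of 53, with DESeq2 values of undefined adjusted p left out. No paired analysis was possible because the groups share no mouse number.

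Counts of called genes over all features moved by over 1.5 times as follows, and the cause was not tested. Without the count filter they were 916 within arterial cells, and 39 (interferon) and 65 (capillary) for differences of the MI effect. DESeq2 gave 616 within capillary cells and 5 (interferon) and 83 (arterial) for the differences. The gate at 2 genes, which keeps fewer cells, gave 725, 346 and 505 within interferon, arterial and capillary cells, 1603 for Plvap-high against the rest, and 6, 82 and 11 for the interferon, arterial and capillary differences. The gate with a minimum share gave 1839 within interferon and 1058 within arterial cells, and 298 (arterial) and 73 (capillary) for the differences. Thinned cells, which hold fewer UMIs, gave 2102 over all EC-gated cells, 373, 163, 261 and 1569 within interferon, arterial, capillary and unclassed cells, 276, 1057, 1253 and 548 for interferon, Plvap-high, arterial and capillary against the rest, 6, 38 and 9 for the interferon, arterial and capillary differences, and 2432 for macrophage-marked cells. Lower class thresholds gave 2072 within interferon and 967 within arterial cells. Leaving out 1 mouse gave 672 to 1475 within interferon, 305 to 685 within arterial and 392 to 1254 within capillary cells, and 6 to 20, 77 to 211 and 17 to 43 for the interferon, arterial and capillary differences.

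No log2 value that reversed was called under its alternative. Ccl2 was at 0.14 without copied cells, 0.00017 with the gate at 2 genes, 0.27 with the share gate and 0.85 over all deposited cells (adjusted p = 0.0801), and Cxcl1 at -0.033 with the share gate. Ackr3 in Plvap-high cells was at -0.0056 without the filter, -0.089 with the share gate, -0.10 in thinned cells, -0.072 at lower thresholds and -0.0017 with classes from thinned cells. Ccl2 in capillary cells was at 0.080 at lower thresholds, Cxcl10 in Plvap-high and Ccl5 in arterial cells at 0.14 and 0.24 with overlapping classes, and Cxcl12 in interferon cells at 0.076 with classes from thinned cells. Leaving out 1 mouse gave Cxcl1 -0.11 to 0.18, Ccl2 -0.68 to 0.18, Cxcr4 -0.18 to 0.39 and Ackr3 in Plvap-high cells -0.11 to 0.10. In percentage points it gave -0.40 to 0.013 for the share of cells with Cx3cl1, -0.0018 to 0.34 for Cxcr4, -0.14 to 1.41 for the arterial and -1.24 to 1.26 for the unclassed share. Without thinning the Cx3cl1 share differed by 3.58 points (exact permutation, adjusted p = 0.0367), and the unclassed, interferon and Plvap-high shares by -15.3, 10.2 and 6.79 (each 0.0476). Shares of 7 of the 9 members passed the threshold without thinning, and 0 of the 9 after it (4 had an unadjusted exact p of 0.0286).

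Depth limits Ccl5 in healthy cells, the spread between mice limits Cxcr4, and MI libraries were deeper, so unthinned shares cannot be told apart from depth. The 3-gene gate removed more of the deeper MI cells, many with Pecam1 UMIs.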
